A study of Mus musculus with 8 samples.

Results

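The 8 long noncoding RNAs Peg13, Rian, Meg3, Mirg, Snhg11, Malat1, Neat1 and Miat were followed in the mouse medial prefrontal cortex after a single fear conditioning session. They were chosen by name as well-known long noncoding RNAs of the brain, although GENCODE vM21 types Snhg11 as protein coding, and all 8 of 8 were found among the 22609 gene rows of the expression table. Contextual fear conditioning mice of strain B6.SJL, aged 3 months, explored a chamber for 3 min and then received 2 foot shocks of 0.8 mA. Context control exposure mice of the same strain and age saw that chamber without a shock. Tissue from the anterior cingulate part of both hemispheres was taken 1 h later, and each group had 4 biological replicates, per the series design text. Whether any mice were pooled is not given in the sources used here.

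Long noncoding RNAs are transcribed and often spliced much like messenger RNAs but act, where a function is known, as RNA. In GENCODE vM21 the merged exons of Malat1, Neat1 and Peg13 form only 1 block each. Malat1 gathers in nuclear speckles, where splicing factors are stored, and Neat1 is the scaffold on which paraspeckles assemble. Miat, also called Gomafu, stays in the nucleus of neurons and binds splicing factors. Meg3, Rian and Mirg are read from the maternal copy of the imprinted Dlk1-Dio3 domain, where they host small nucleolar RNAs and microRNAs. Peg13 is read from the paternal copy of another imprinted domain and lies within the gene Trappc9. Snhg11 hosts a small nucleolar RNA and is best known from neurons.

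Promoter windows of 300 bases are printed for Meg3 and Snhg11, whose levels moved together from library to library, and for Rian, which shares its imprinted domain with Meg3 but held steady. They cover the RefSeq gene start, mostly upstream of it, in build GRCm38.p6. For Meg3 the window is chr12:109540746-109541045, for Rian chr12:109603695-109603994 and for Snhg11 chr2:158375463-158375762, all on the plus strand. Capitals mark matches to any of 5 motifs on either strand.
Meg3: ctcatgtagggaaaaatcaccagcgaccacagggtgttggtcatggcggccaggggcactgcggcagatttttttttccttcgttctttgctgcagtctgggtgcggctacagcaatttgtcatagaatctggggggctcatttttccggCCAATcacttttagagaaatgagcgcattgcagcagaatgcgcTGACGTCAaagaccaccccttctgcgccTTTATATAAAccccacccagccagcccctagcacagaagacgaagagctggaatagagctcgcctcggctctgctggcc
Rian: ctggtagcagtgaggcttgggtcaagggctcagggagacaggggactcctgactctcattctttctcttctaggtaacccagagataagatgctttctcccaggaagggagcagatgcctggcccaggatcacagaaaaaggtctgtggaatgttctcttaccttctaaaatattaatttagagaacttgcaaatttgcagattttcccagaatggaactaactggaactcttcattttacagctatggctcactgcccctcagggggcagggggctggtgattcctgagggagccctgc
Snhg11: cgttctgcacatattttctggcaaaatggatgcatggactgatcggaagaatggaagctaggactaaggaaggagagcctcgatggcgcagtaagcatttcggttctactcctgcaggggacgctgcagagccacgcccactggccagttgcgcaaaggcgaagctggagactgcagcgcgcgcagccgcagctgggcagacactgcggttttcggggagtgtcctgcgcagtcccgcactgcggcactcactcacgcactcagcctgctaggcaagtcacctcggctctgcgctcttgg

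The motifs searched were TGACG, the core of the cAMP response element, TGANTCA for AP-1, CACGTG for the E-box, TATAAA for the TATA box and CCAAT. Among 32851 promoter windows of this length, 20.8% held TGACG, 7.81% TGANTCA, 7.15% CACGTG, 13.6% TATAAA and 37.4% CCAAT. The Meg3 window held CCAAT, the palindrome TGACGTCA, which is TGACG on both strands and contains no other motif searched, and TTTATATAAA, which is TATAAA on both strands. Neither the Rian nor the Snhg11 window held any of the 5. Of the windows not printed, that of Malat1 held 3 matches to TGACG on either strand, more than that of Meg3. The Mirg window held 1 CCAAT and the Miat window no match. The Snhg11 window had 21 CpG dinucleotides, the Meg3 window 13 and the Rian window 0, against a median of 7 over all windows. A second RefSeq start of Meg3 had a window with 1 CpG and no match.

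Reads assigned to genes numbered 1992452 to 3565356 per library. Deposited values are gene read counts divided by a factor per library, without correction for gene length, and are called scaled read counts here. Scaling factors recomputed by TMM differed little between libraries, from 0.98 to 1.03. Marker genes of neurons were present in every library (summed level 17462 to 21331 in controls and 18459.9 to 22012 in conditioned samples). Lists of astrocyte, oligodendrocyte, precursor, endothelial and meningeal genes lay lower after conditioning in every tested member (11, 12, 8, 11 and 8 genes), microglial genes in 10 of 11 and choroid plexus and ependymal genes in 5 of 6, while 10 of 12 neuronal genes lay higher (median log2 change 0.087, and -0.023 after quantile normalization), all with none past the threshold. Of the choroid plexus and ependymal genes, 5 were at 0 in at least 1 library. Summed oligodendrocyte levels ran from 2760.1 to 11842 in controls and from 2958 to 5048 in conditioned samples, and those of astrocytes from 16707 to 23177 and from 16871 to 18769. Microglial sums ran from 1992 to 2467 and from 1787 to 2008, endothelial and mural sums from 1573 to 2107 and from 1123 to 1705, and meningeal sums from 502 to 1078 and from 247 to 791. The part of these shifts in the values below was not tested. In bulk tissue, fewer cells of a type and less RNA per cell cannot be told apart.

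Not all of these RNAs were abundant in the deposited values. By mean scaled read count, which is not corrected for length, Peg13 ranked 268 and Rian 501 among the 22609 rows. Meg3 ranked 2270, Malat1 3672 and Snhg11 3764. Miat ranked 8313, Neat1 11196 and Mirg 12521, the last with 46 reads in all 8 libraries together. The whole set took 0.0983% to 0.127% of gene reads per library, and Peg13 with Rian made up 62.6% to 85% of that. Malat1 had 90 to 471 reads per library and Neat1 1 to 31.

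Levels of different genes were compared per kilobase of annotated exon (GENCODE vM21, all exons of a gene merged). Peg13 stood at 316 ± 26.8 scaled reads per kilobase (SD over n = 8 libraries), above Rian at 59.1 ± 4.55, with no overlap between the libraries of one and the other. Malat1 came next, and its highest library, control replicate 1, stood at 56.0 where Rian stood at 54.1, so these ranges touched. Malat1 (34.3 ± 11.7), Snhg11 (27.4 ± 11.6) and Meg3 (21.4 ± 9.5) could not be ranked among themselves beyond their spread. Miat was at 6.27 ± 2.89, with its highest library above the lowest of Meg3, and Mirg (0.969 ± 0.994) and Neat1 (0.806 ± 0.497) came last and overlapped. By the longest annotated transcript, Rian was at 133 and Snhg11 at 39.8, with Peg13 and Rian still first and second. Exons of every member except Peg13 overlap other GENCODE entries, so counting could have lost reads from those members. Peg13 could instead have gained reads from unspliced RNA of Trappc9. The order is thus one of assigned reads, and the effect of such overlaps on it was not tested. The annotation that the authors counted on is not given in the sources used here.

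None of the 8 RNAs passed the threshold between conditioned and control cortex (limma, adjusted p = 0.9998 for each), where 0% of all 14704 tested genes passed. None had an unadjusted p under 0.05, against 2.7% of tested genes. None separated the groups, against 1.92% of tested genes, and 5 of 8 lay higher after conditioning by some amount, against 51.8%. The members' median log2 change was 0.06, and that of all tested genes 0.0095. Log2 changes are differences between group means of log2(value + 1). They can differ from the ratio of the group means printed below, even in sign.

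**Figure D1:**
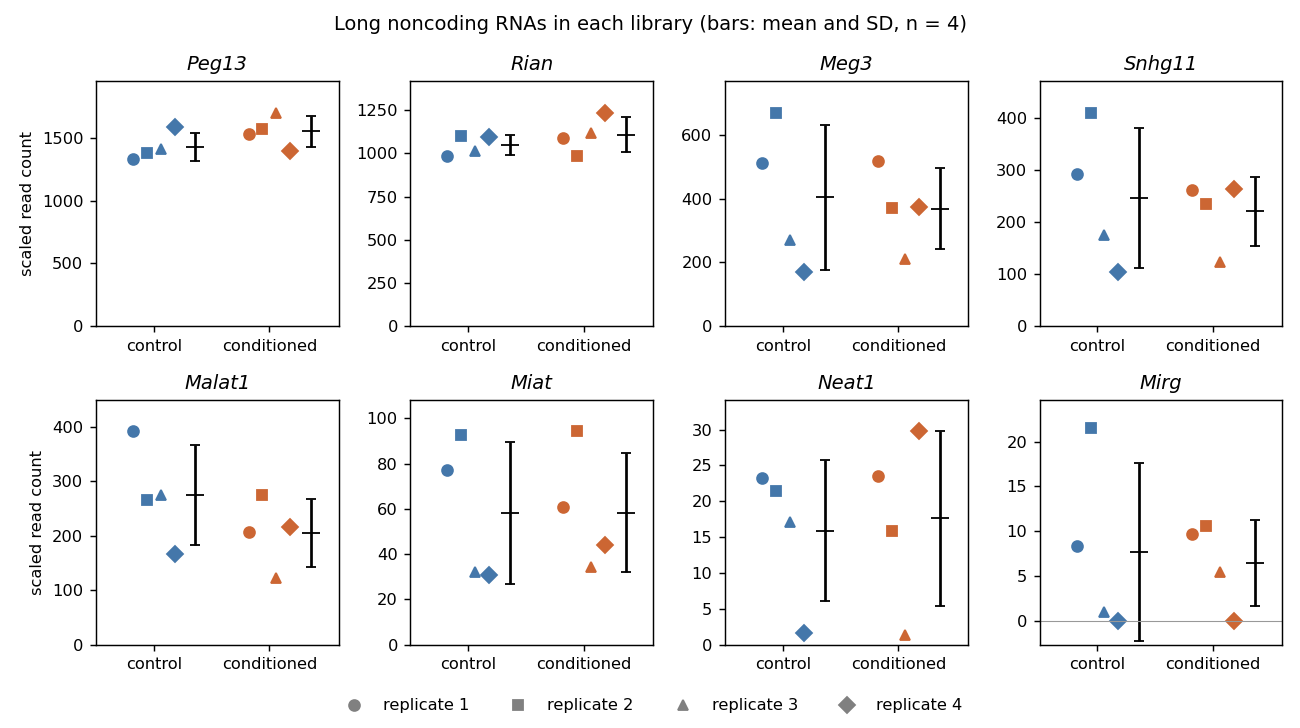
Scaled read counts (y axis, from 0) of each RNA in every library, controls in blue and conditioned samples in orange, with symbols for the replicate number and the mean and SD (n = 4) beside each group. The groups overlap in all 8 panels, and Peg13 and Rian lie close together in all libraries while the others spread from near 0 or about 100 to several times more.

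Peg13, the paternally expressed RNA within Trappc9, was the steadiest of the abundant members together with Rian. It was 1335, 1382, 1416 and 1587 scaled reads in context controls 1 to 4 and 1537, 1576, 1701 and 1401 in conditioned replicates 1 to 4. The conditioned samples leaned higher, but replicate 4 lay below 2 controls. Its log2 change was 0.12 with a 95% confidence interval from -0.15 to 0.39 (group means 1430.0 ± 109.6 and 1554 ± 124, SD, n = 4). The interval allows at most a rise by 1.31 times or a fall to 0.899 of the control level.

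Rian was 987, 1103, 1012 and 1094 in controls and 1089.6, 986, 1120.5 and 1234 after conditioning, in replicate order. The highest value was in a conditioned sample and the lowest also, so the groups overlapped throughout. Group means were 1049 ± 58.2 and 1107 ± 102 (SD, n = 4), and the log2 change was 0.08 (interval -0.20 to 0.35). In GENCODE, exons of Rian overlap 9 other entries on the same strand, whose reads could be split from it by counting.

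Meg3, the first RNA of the Dlk1-Dio3 maternal transcripts, spread far more within each group. Controls 1 to 4 read 512, 670.2, 269 and 169, and conditioned replicates 1 to 4 read 521, 373, 210.4 and 373. Both the highest and the lowest library were controls. The means were 405 ± 228 and 369 ± 127 (SD, n = 4). The log2 change, taken between means of log2 values, was -0.0088 with an interval from -0.84 to 0.83. That interval leaves room for a rise by up to 1.77 times or a fall to 0.557 of the control level.

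Snhg11 traced nearly the same profile as Meg3 although it lies on another chromosome. It was 293, 409.6, 175 and 105 in controls and 261, 235, 123 and 264 in conditioned samples. Control replicate 2 was again highest and control replicate 4 again lowest. Its means were 246 ± 134 and 221 ± 66.4 (SD, n = 4), with a log2 change of -0.04 (interval -0.85 to 0.78).

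Malat1 had the largest lower value after conditioning among the 8, and it did not pass. Controls 1 to 4 were 391, 266, 275 and 166, and conditioned replicates 207, 275, 123 and 215. Control replicate 1 was highest and conditioned replicate 3 lowest, and the remaining 6 libraries overlapped. The means were 275 ± 92.2 and 205 ± 62.4 (SD, n = 4), and the log2 change was -0.41 (standard error 0.28, interval -1.02 to 0.19). It was negative both among replicates 1 and 2 (-0.43) and among replicates 3 and 4 (-0.39).

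Neat1 and Miat are the other nuclear RNAs of the set. Neat1 was 23.3, 21.5, 17.1 and 1.61 in controls and 23.5, 15.9, 1.37 and 29.7 after conditioning. Control replicate 4 and conditioned replicate 3 held 1 read each, against 12 to 31 reads in the other 6 libraries. Its log2 change of 0.06 had an interval from -1.81 to 1.92. Miat was 77.2, 92.7, 32.3 and 30.6 in controls and 60.8, 94.2, 34.2 and 44.1 in conditioned samples. Its means were nearly equal, at 58.2 ± 31.5 and 58.3 ± 26.3 (SD, n = 4), and the log2 change was 0.07 (interval -0.83 to 0.97).

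Mirg, the host of a large microRNA cluster, was near the limit of detection. It had 10, 16, 1 and 0 reads in controls and 7, 8, 4 and 0 in conditioned samples. A count of 0 allows up to 3 reads, or a scaled value of 4.83 in control replicate 4 and 2.88 in conditioned replicate 4. These limits cover counting error only. Its means were 7.7 ± 9.91 and 6.44 ± 4.84 (SD, n = 4), lower after conditioning, while the log2 change was 0.23 (interval -1.96 to 2.42). Mirg thus has no direction beyond its error.

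**Figure D2:**
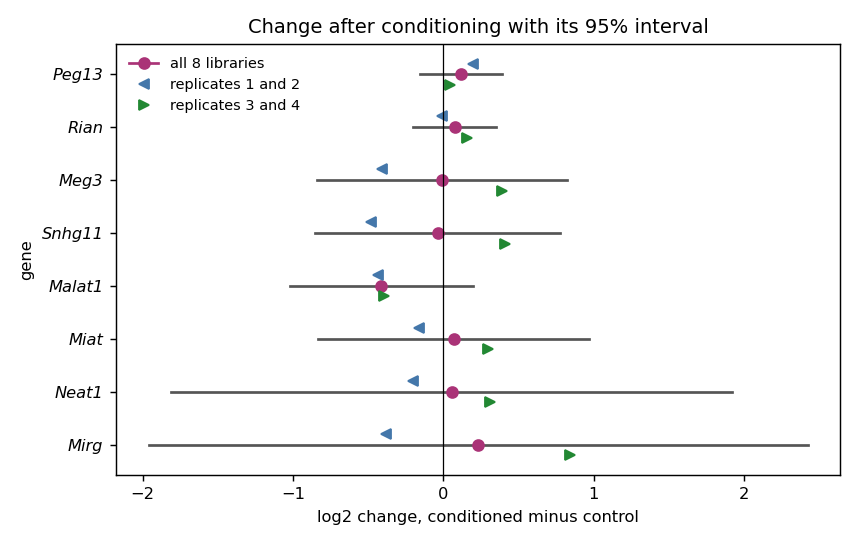
Log2 change of each RNA, conditioned minus control (x axis), with the 95% confidence interval from limma over 8 libraries, and the change within replicates 1 and 2 and within replicates 3 and 4 as triangles. All 8 intervals include 0, and they are narrowest for Peg13 and Rian.

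The RNAs fell apart by how much they varied between libraries rather than by group. Among the 6532 tested genes with a mean of at least 100, the SD of log2 values over 8 libraries was smaller than that of Rian (0.11) in 2.56% of genes and smaller than that of Peg13 (0.12) in 4.39%. It was smaller than that of Meg3 (0.69) in 96.9%, of Snhg11 (0.66) in 96.3% and of Malat1 (0.51) in 90.7%. Sampling of reads alone would give an SD of about 0.09 for Meg3, 0.12 for Snhg11, 0.11 for Malat1, 0.05 for Rian and 0.04 for Peg13. The SD was 1.49 for Neat1, where sampling alone would give 0.78, and 1.72 for Mirg, where it would give 0.98. For Miat it was 0.67, where sampling would give 0.23. The sampling value omits the added 1 and takes a count of 0 as 1 read, so it is rough for Neat1 and Mirg. From the lowest to the highest library, Peg13 spanned 1.27 times, Rian by 1.25, Miat by 3.08, Malat1 by 3.18, Snhg11 by 3.92 and Meg3 by 3.97.

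**Figure D3:**
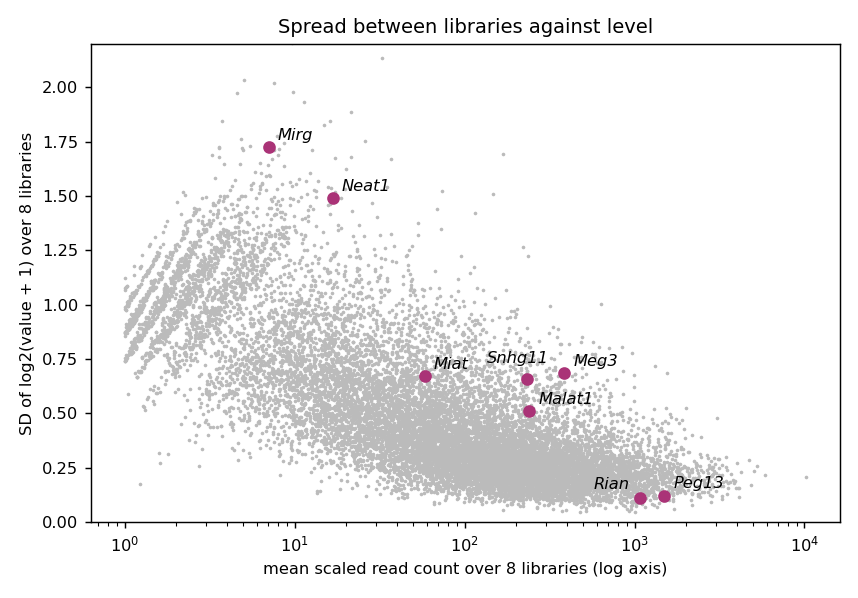
SD of log2(value + 1) over the 8 libraries (y axis) against mean scaled read count (x axis, log) for all 14704 tested genes in grey and the 8 RNAs in purple. Rian and Peg13 lie at the lower edge of the cloud at their level, and Meg3, Snhg11 and Malat1 lie in its upper part.

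Part of that variation lay along the replicate numbers in the labels. Miat was 60.8 to 94.2 in the 4 libraries numbered 1 and 2 and 30.6 to 44.1 in the 4 numbered 3 and 4, without overlap. Mirg likewise was 8.31 to 21.5 in the first set and 0 to 5.47 in the other. The share of all tested genes that separate these sets was not counted. Meg3 averaged 519 in replicates 1 and 2 and 255 in replicates 3 and 4, and Snhg11 300 and 167, each with overlapping ranges. Rian averaged 1041 and 1115 and Peg13 1458 and 1526 in the same order. The sets also parted over 12043 genes with a mean of at least 10. There, deviations of controls 1 and 2 from their group mean correlated positively with those of conditioned replicates 1 and 2 (r = 0.39 to 0.48). With those of conditioned replicates 3 and 4 they correlated negatively (-0.58 to -0.17), and controls 3 and 4 did the reverse. Deviations within a group sum to 0 for each gene, so these further signs largely follow from the positive ones and add no support. By the positive correlations, the division is not particular to these RNAs. What the numbers share (a day, a cage or a preparation) is not given in the labels, and this division was chosen after values had been seen, so it carries no test.

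The difference between conditioned and control samples took opposite signs in the sets of replicates for several RNAs. Meg3 differed by -0.41 in log2 within replicates 1 and 2 and by 0.39 within replicates 3 and 4. Snhg11 differed by -0.48 and 0.41, Mirg by -0.38 and 0.84, Neat1 by -0.20 and 0.31 and Miat by -0.16 and 0.30. Rian stood at -0.0094 and 0.16, and Peg13 at 0.20 and 0.04. Each of these values rests on 2 libraries per group, and the differences between sets were not tested.

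**Figure D4:**
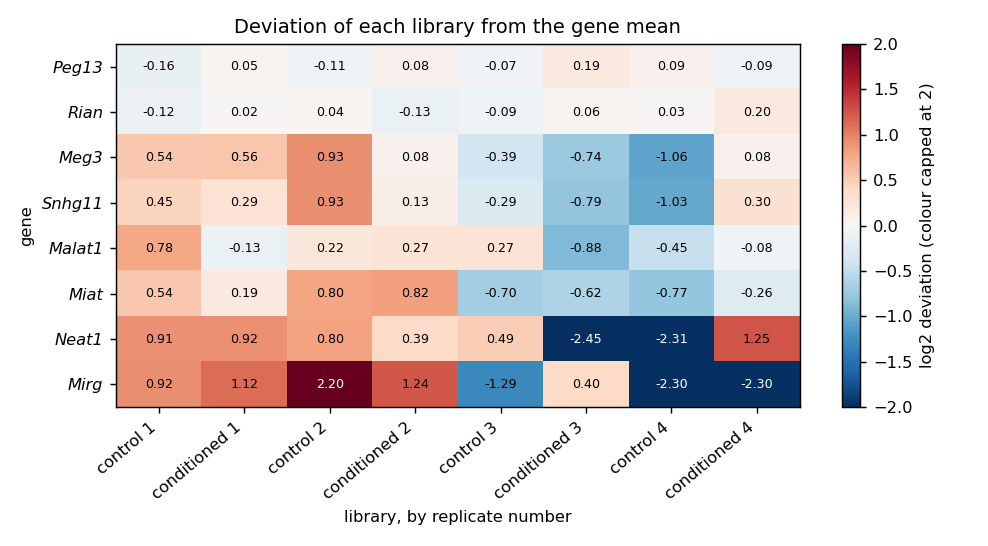
Log2 deviation of each library (x axis, control and conditioned side by side by replicate number) from the mean of each RNA (y axis), printed in the cells. Meg3, Snhg11, Miat, Neat1 and Mirg are positive in all 4 libraries numbered 1 and 2, control replicate 4 is negative for these and for Malat1, and Peg13 and Rian stay closest to 0.

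Each RNA was then matched to the genes with the most similar profile over the 8 libraries. Similarity was the root mean square difference of centred log2 values. Candidates were 6281 named genes with a mean of at least 100. Predicted loci and names ending in Rik were passed over, so several long noncoding RNAs were not candidates. Meg3 and Snhg11 were each other's closest match, at 0.14 log2 units, where the profile of Meg3 itself had a root mean square of 0.64. Next came Nin, a centrosomal protein gene, for Meg3 (0.23) and the ankyrin gene Ank1 for Snhg11 (0.25). Miat was closest to the kinesin gene Kif21b (0.21) and the F-box gene Fbxo10 (0.22), and Malat1 to the kinase gene Mapk4 (0.22) and the zinc finger gene Tshz1 (0.23). These are the closest among 6281 candidates and describe these 8 libraries. Distances were larger for Neat1 (Snhg11 at 0.91 and Tshz1 at 0.92) and Mirg (Eml2 at 0.82 and Ptpru at 0.84). Sampling of reads alone would give these RNAs an SD of about 0.78 and 0.98, which is a rough value at such low counts. A near profile could thus have gone unseen for either. Rian (Bcat1 and Sobp, 0.05 each) and Peg13 (Dap3 and Prpf8, 0.04 each) were closest to genes that were themselves steady.

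Ratios between RNAs of a locus were compared next, on log2 values without length correction, which describe change and not relative abundance. The log2 ratio of Rian to Meg3 was 1.56 ± 0.91 in controls and 1.65 ± 0.57 in conditioned samples (SD, n = 4, exact permutation p = 0.914, two-sided). The ratio ran from 0.72 in control replicate 2 to 2.69 in control replicate 4. That of Mirg to Meg3 was -6.29 ± 1.16 and -6.05 ± 1.69 (SD, n = 4, exact permutation p = 0.829). That of Neat1 to its neighbour Malat1 was -4.38 ± 1.1 and -3.91 ± 1.31 (SD, n = 4, exact permutation p = 0.571). Adjusted over these 3 ratios each p was 0.914, and 70 assignments allow no p below 0.0286.

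Across the 8 libraries Meg3 and Rian showed Pearson's r of -0.10 (exact permutation p = 0.805) and Spearman's rho of -0.05 (p = 0.935), and r was -0.18 without the 2 libraries farthest from the median of Meg3. Meg3 and Mirg had r = 0.69 (exact permutation p = 0.065) and rho = 0.67 (p = 0.077), falling to r = 0.33 without those 2 libraries, control replicates 2 and 4. Rian and Mirg had r = -0.41 (exact permutation p = 0.304) and rho = -0.40 (p = 0.332), and r was 0.12 without the 2 farthest libraries. Malat1 and Neat1, neighbours on chromosome 19, had r = 0.77 (exact permutation p = 0.0241) but rho = 0.36 (p = 0.389), and r = 0.64 without conditioned replicate 3 and control replicate 1. Adjusted over the 4 relations, the exact permutation p for r was 0.0962 for Malat1 and Neat1 and 0.13 for Meg3 and Mirg, and 0.406 and 0.805 for the others. None passed after adjustment. For Malat1 and Neat1 the exact permutation p without those libraries was 0.16 (n = 6). On deviations from the group means over all 8 libraries their r was 0.87 (permutation p = 0.0226, not adjusted). That p is only approximate, because values centred within groups do not exchange freely between them. Over replicates 1 and 2 or 3 and 4 alone there are only 4 libraries each, too few for a correlation.

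Other genes of the Dlk1-Dio3 domain were low. Dlk1, which encodes a transmembrane ligand related to Notch ligands, was 36.1 ± 23.5 in controls and 28.6 ± 16.1 after conditioning (SD, n = 4), and the retrotransposon-derived Rtl1 was 1.38 ± 1.2 and 2.19 ± 2.56. The deiodinase gene Dio3 was 2.56 ± 1.07 and 5.98 ± 3.4 (SD, n = 4), every conditioned sample above every control, at a limma p of 0.0988 before adjustment (adjusted p = 0.9998). It is named here after its values were seen, and stands on a few reads per library. It was 1 of 6 genes listed for the domain and its flanks, where 1.92% of all tested genes had groups that did not overlap. At the flanks Begain was 227 ± 42.9 and 228 ± 115 and the phosphatase subunit gene Ppp2r5c 1007 ± 62.6 and 934 ± 129. Of the 6 domain and flanking genes tested, 2 lay higher and 4 lower, and none passed (median log2 change -0.07).

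MicroRNA precursors of the domain had almost no reads. Of 51 precursor genes in the table, 49 were at 0 in every library and Mir377 and Mir369 had 1 read each. Both lie within Mirg, whose RefSeq span holds 10 microRNA genes with 19 mature sequences and 18 distinct seeds, while Rian spans 3 and Meg3 2. The mature sequences of those precursors are shown because they are the products of Mirg that the table touched, with the seed (bases 2 to 8) in capitals, from RefSeq in build GRCm38.p6.
miR-377-5p: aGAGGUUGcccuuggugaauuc
miR-377-3p: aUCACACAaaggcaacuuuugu
miR-369-5p: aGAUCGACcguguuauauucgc
miR-369-3p: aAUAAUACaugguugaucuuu
The 4 seeds differ, and no other mature sequence within these host genes shares them. The only seed shared within Mirg was that of miR-453 and miR-496a-5p. In GENCODE, exons of Mirg overlap 9 microRNA genes on the same strand. The labels name no small RNA library, and nothing is read from the zeros about mature microRNA levels.

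Protein genes of paraspeckles, which assemble on Neat1, and of nuclear speckles, where Malat1 gathers, were tested alongside. Of 25 paraspeckle protein genes tested, 15 lay higher and 10 lower and none passed (median log2 change 0.0089). The most highly read were Matr3 (2076 ± 279.6 and 2254 ± 298), Sfpq (675 ± 58.7 and 659 ± 118) and Tardbp (620.3 ± 54.6 and 574 ± 116), all nuclear RNA-binding proteins (SD, n = 4, controls first). Ss18l1, a neuronal chromatin remodelling subunit, was 264 ± 32.8 and 352 ± 28.0, every conditioned sample above every control (limma adjusted p = 0.9998), and is named after its values were seen. It was 1 of the 25, where 1.92% of all tested genes had groups that did not overlap. Of 28 speckle and splicing factor genes, 14 lay higher and 14 lower and none passed (median -0.0016), with the kinase gene Srpk2 at 1197 ± 36.7 and 1288 ± 193, Son at 975.5 ± 114 and 1031 ± 188 and Srrm2 at 852 ± 138 and 940.4 ± 57.8. The splicing factor gene Sf3a1, also named after its values were seen, was 346 ± 10.3 and 379 ± 9.01 (SD, n = 4), every conditioned sample above every control (limma adjusted p = 0.9998). It was 1 of the 28, beside the same 1.92% of all tested genes.

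Splicing regulators that bind Miat split 3 higher and 4 lower with none past the threshold (median -0.02). Celf2 was 1584 ± 131 and 1905 ± 364, Qk 1751 ± 635 and 1525 ± 593, and Khdrbs1 700.5 ± 90.9 and 638 ± 89.0 (SD, n = 4). Of 13 tested host genes of small nucleolar RNAs other than Snhg11, 6 lay higher and 7 lower and none passed (median -0.0091). The most highly read were Gas5, at 219 ± 26.9 and 184 ± 14.4, Snhg12 at 48.0 ± 3.87 and 48.1 ± 8.74, and Snhg4 at 33.3 ± 6.39 and 35.0 ± 10.2.

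Around Peg13, 4 of 6 genes lay higher and 2 lower and none passed (median 0.20). Trappc9, whose intron holds Peg13 on the same strand, was 171, 239, 85.7 and 143 in controls and 238, 302, 182 and 86.3 in conditioned samples. Its libraries ran from 85.7 to 302, a wider span than those of Peg13, and reads from its unspliced RNA could not be told from Peg13. Ptk2 was 572 ± 24.9 and 616 ± 55.9, and Eif2c2, the older symbol of Ago2, 196 ± 46.2 and 254 ± 47.2 (SD, n = 4).

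Genes next to the other members on the chromosome are given for context. Beside Neat1, Frmd8 was 54.7 ± 21.2 and 39.7 ± 6.28 (SD, n = 4). Around Miat, Mn1 was 152 ± 42.8 and 188 ± 56.6 and the crystallin gene Crybb1 4.55 ± 1.04 and 3.86 ± 2.07. Beside Snhg11, Ralgapb was 841 ± 118 and 849 ± 191 and Snhg17 (9430008C03Rik in the table) 10.5 ± 6.86 and 10.9 ± 8.44. None of these passed the threshold.

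Other long noncoding RNAs and imprinted genes were counted as lists. Of 26 further long noncoding RNAs tested, 16 lay higher and 10 lower and none passed (median 0.06). The most highly read were 6330403K07Rik (777 ± 142 and 862 ± 117), Tug1 (726 ± 108 and 701 ± 176) and 2900097C17Rik (413 ± 84.8 and 454 ± 72.3, SD, n = 4). Those with groups that did not overlap, as in 1.92% of all tested genes, were 2 of the 26 and are named after their values were seen. They were Pantr1 (2610017I09Rik), at 237 ± 38.5 and 166 ± 26.2, and Zfas1 (1500012F01Rik), at 87.7 ± 6.65 and 56.1 ± 10.8, with log2 changes of -0.51 and -0.65 (limma adjusted p = 0.9998 for each). Of 35 imprinted genes of other domains, 25 lay higher and 10 lower and none passed (median 0.13), with Impact at 1614 ± 274 and 1736 ± 339, Gnas at 1471 ± 332 and 1569 ± 416 and Ppp1r9a at 1411 ± 75.1 and 1642 ± 338.

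Among the imprinted genes, Grb10 (202 ± 30.9 and 267 ± 12.7), Zrsr1 (287 ± 34.9 and 380.3 ± 35.5) and Snrpn (0.795 ± 0.571 and 3.1 ± 0.674) had every conditioned sample above every control, and Sgce (129 ± 4.41 and 100.05 ± 12.1) every one below (SD, n = 4). These are 4 of the 35 tested, where 1.92% of all tested genes had groups that did not overlap, and they are named after their values were seen. Snrpn stands on a few reads per library. The limma adjusted p was 0.9998 for each.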

How the data were processed

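RNA from 8 samples, 4 per group by their titles, was sequenced. The deposited table is named FPKM, but within each column 100% of values above 0 were whole multiples of 1 step (0.831 to 1.61, within 0.01 of a read), so the authors' values were treated as a scaled count signal without length correction. TopHat and HTSeq are named without versions and the build as hg19, a human build, per the submitters' processing notes. No source read for this work states the scaling, annotation, library type or strand setting, so antisense and overlapping genes cannot be told apart. Gene coordinates are therefore not printed, apart from those of RefSeq promoter windows. Dividing by the step gave back 1992452 to 3565356 gene reads per library, similar between groups (exact permutation p = 0.857, two-sided). Replicates within a group differed by more than sampling noise (chi-square per degree of freedom 2.56 to 25.3 over 12 pairs). The design text calls the replicates biological without naming animals, so p-values measure the spread between these samples.

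Values were transformed to log2(value + 1), which understates changes of low genes. The 14704 genes with a mean of at least 1 were fitted in limma 3.58.1 under R 4.3.3 (trend, two-sided, Benjamini-Hochberg, threshold 0.05), after testing on simulated data. edgeR 4.0.16 and DESeq2 1.42.0 on the recovered reads were alternatives. The plan named limma for normalized values and edgeR for raw counts. Same-numbered samples deviated together (r = 0.40, 0.41, 0.16 and 0.20 for numbers 1 to 4, over 12043 genes with a mean of at least 10). Some pairs with different numbers correlated more strongly (up to 0.64), and the labels do not say what a number shares, so pairing by number is not established. The main fit and the exact permutation tests left samples unpaired, and pairing by number was used only in alternative settings.

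The members and gene lists were chosen with earlier results of these data known. Lists covered the Dlk1-Dio3 and Peg13 domains, paraspeckles, speckles, Miat partners, small nucleolar RNA hosts, other long noncoding and imprinted RNAs, and markers of neurons, glia, vessels, meninges, choroid plexus, striatum and activity. Named genes were all members, the 3 most highly read genes of each related list, chromosomal neighbours in the RefSeq table (GRCm38.p6) and the 2 closest profiles per member; others are marked. Of the 7 striatal genes, 3 lay higher and 4 lower (median -0.28), and of the 11 activity-induced genes 6 and 5 (median 0.04), with none past the threshold. Median log2 changes were 0.09 for neuronal, -0.32 for astrocyte, -0.49 for oligodendrocyte, -0.33 for precursor, -0.27 for microglial, -0.37 for endothelial and mural, -0.66 for meningeal and -0.74 for choroid plexus and ependymal genes. RefSeq held a promoter for 6 of the 8 members. One chromosomal neighbour that the rule names is not reported here.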

Additional observations from a re-analysis of the deposited data

How the results depend on the processing

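No member passed the threshold in any of the 19 alternative settings, by limma, edgeR or DESeq2. Over all genes 0 passed in the settings with all 8 samples (397 at an unadjusted p under 0.05 in limma, 385 in edgeR and 340 in DESeq2). The count was 0 to 1 with a library left out, the 1 being Uevld without fear conditioning replicate 4. With the replicate number as a block 0 genes and 0 members passed (594 genes at an unadjusted p under 0.05), and the block changed no other call. Sign-flip tests over the pairs left the ratio differences at 0.08, 0.24 and 0.47 (exact p = 0.875, 0.75 and 0.75).

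Malat1 stayed lower (-0.63 to -0.19 over all settings, unadjusted limma p down to 0.0402 without control replicate 4), and Peg13 (0.03 to 0.17) and Rian (0.0027 to 0.13) stayed higher, never past the threshold. The sign of the other 5 was not stable. Miat was -0.027 in edgeR, -0.014 in DESeq2 and -0.078 with array weights. Mirg was -0.32 in edgeR, -0.28 in DESeq2 and -0.0043 at a pseudocount of 10, and a filter at a mean of 10 removed it. Neat1 was -0.22 with array weights. With single libraries left out the ranges were -0.36 to 0.30 for Meg3, -0.39 to 0.27 for Snhg11, -0.19 to 0.35 for Miat, -0.70 to 0.88 for Neat1 and -0.49 to 1.04 for Mirg. Meg3 and Snhg11 turned positive without control replicate 1 or 2 or fear conditioning replicate 3. The cause was not tested.

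With single libraries left out the ratio differences ran from -0.20 to 0.46 for Rian to Meg3, from -0.13 to 1.07 for Mirg to Meg3 and from -0.072 to 1.07 for Neat1 to Malat1. Meg3 and Rian had r = 0.46 after quantile normalization. Without the 2 farthest libraries Rian and Mirg had r = 0.12 and Malat1 and Neat1 r = 0.64, and the latter had r = 0.70 after quantile normalization, no longer under 0.05 before adjustment. List medians ran from -0.22 to 0.13 for small nucleolar RNA hosts, from -0.35 to -0.16 for astrocyte and from -0.49 to 0.24 for striatal genes with single libraries left out. The oligodendrocyte median ran from -0.84 without control replicate 4 to -0.0075 without control replicate 3, the meningeal median was -0.17 without fear conditioning replicate 3, and the Peg13 domain median was 0.057 without control replicate 3. The medians of the Dlk1-Dio3 genes (-0.13 to 0.061), Miat partners (-0.080 to 0.029), other long noncoding RNAs (-0.046 to 0.077) and activity-induced genes (-0.16 to 0.12) also took both signs. By the longest transcript Rian stood at 133 and Snhg11 at 39.8 scaled reads per kilobase.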
